A study of Rattus norvegicus with 38 samples.

Results

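Blood vessels and clusters of neurons were cut by laser microdissection from the cortex of the same late-stage Wistar rats, and the RNA of both materials was compared animal by animal. Late-stage means an age of 32 to 34 weeks. Wistar is an outbred laboratory strain with normal blood pressure, set in this series beside SHRSP, the stroke-prone line of the spontaneously hypertensive rat. The labels give no treatment and no altered allele for any group. The 8 libraries of this comparison, of 38 in the series, are those whose titles carry the late stage, the Wistar code and either the vessel or the neuron code. They form 4 pairs through the number that opens each title, read here as the number of the animal (350, 351, 353 and 354). The comparison is vessels minus neurons within a pair, so that strain and age are the same on both sides. For reference, the report also uses late SHRSP rats of the same age, and early Wistar and early SHRSP rats of 24 to 25 weeks, with 5 pairs each. Which vessels and neuron clusters were picked, and whether animals were pooled, the labels do not say.

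Cortical vessels are tubes of endothelial cells, which carry the tight junctions and transporters of the blood-brain barrier, wrapped by smooth muscle cells in arterioles and by pericytes in capillaries, with a basement membrane and astrocyte end-feet around them. Neurons of the cortex are mostly glutamatergic projection neurons, with a minority of GABAergic interneurons, and much of their distinct RNA serves synapses, ion channels and long processes. A cut vessel is thin and lies in neuropil, so a vessel capture can hold RNA of the cells next to it, and a cluster of neuron bodies can hold capillaries and glia. Expression was read as counts per Ensembl gene ID (called ID here). Neither the deposited table nor the reference table used here connects these IDs to gene names. The content of either material could therefore not be checked against endothelial, smooth muscle or neuronal markers, and no gene, pathway or sequence is named. In bulk captures of this kind, fewer cells of a type and less RNA per cell cannot be told apart.

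The vessel libraries held fewer IDs than the neuron libraries, although they had more counts in 3 of 4 animals. Animals 350, 351, 353 and 354 gave 4239214, 4910359, 2291689 and 4201360 counts from vessels, and 2922937, 3265524, 2916345 and 4101901 counts from neurons. Brought to the smallest of these totals, 2291689 counts, the vessel libraries held 10297, 10697, 11190 and 11807 IDs with at least 1 count, and the neuron libraries 13808, 13639, 13698 and 13290. Vessels were lower in 4 of 4 animals, with a mean difference of -2611 ± 857 IDs (SD, n = 4), and the materials did not overlap. An exact paired permutation test gave p = 0.125 (two-sided, adjusted p = 0.25 over 2 tests), which is the smallest p that 4 pairs can give. The most abundant ID, ENSRNOG00000043866, took 22.7%, 34.0%, 22.3% and 29.99% of the counts in vessels, against 35.5%, 24.3%, 34.98% and 35.3% in neurons, in the same order of animals. Its share was lower in vessels in 3 of 4 animals and higher in animal 351, whose neuron library stood apart from the other neuron libraries (exact paired permutation test, p = 0.375, adjusted p = 0.375). The 95% Wilson intervals of these shares reach at most 0.0549 percentage points to either side and cover counting error only.

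**Figure D1:**
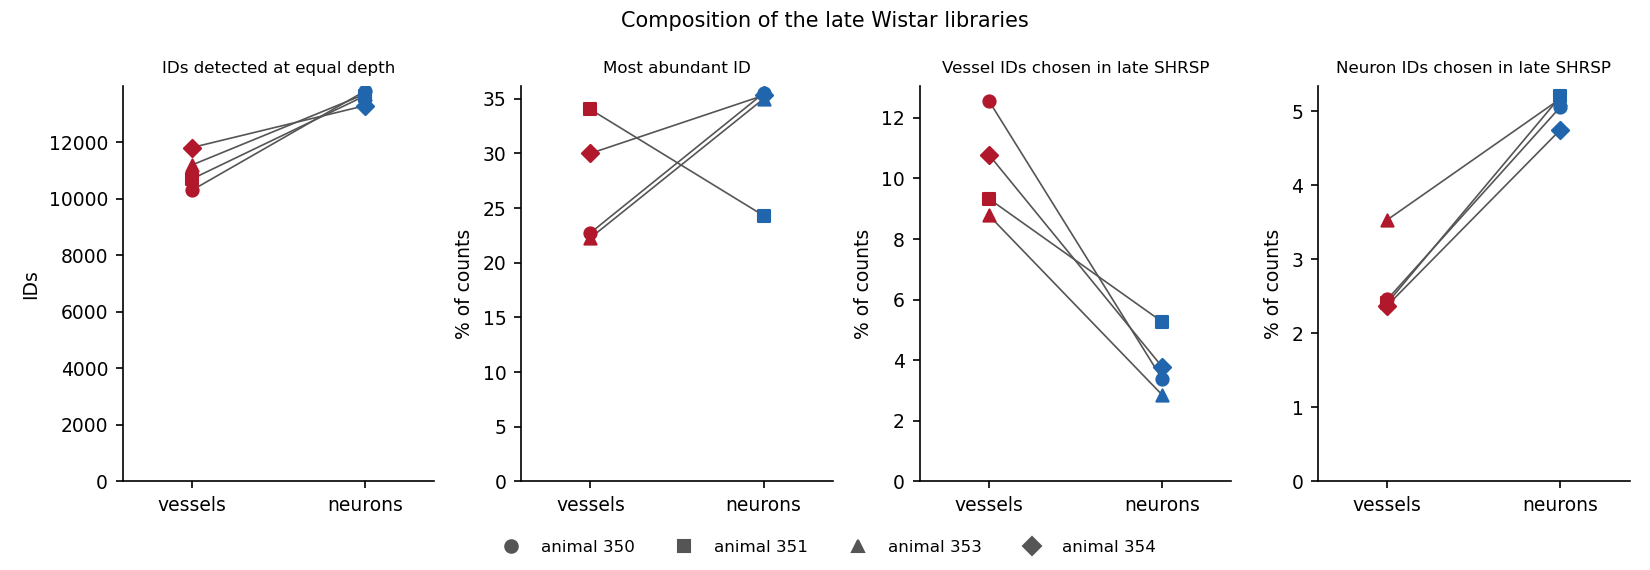
Each line joins the vessel (left, red) and neuron (right, blue) library of 1 late Wistar animal. The panels show IDs with a count at 2291689 counts per library, and the percentage of counts taken by the most abundant ID, by 506 IDs called higher in vessels in late SHRSP rats and by 215 called higher in neurons there. Vessels held fewer IDs in all 4 animals, and the most abundant ID runs the other way in animal 351 alone.

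Vessels and neurons of late Wistar rats differed in 923 of 10292 IDs tested (8.97%), 574 of them higher in vessels (5.58%) and 349 lower in vessels, that is higher in neurons (3.39%). The test was edgeR's quasi-likelihood test with the animal as a block, and a call is an ID with a Benjamini-Hochberg adjusted p under 0.05. Calls higher in vessels made up 62.2% of all calls here, but 44.0% in DESeq2 (872 higher, 1109 lower) and 43.5% without a filter on low counts (631 higher, 821 lower), so the balance of directions depends on the method. In size the calls higher in vessels were larger. Their median log2 fold was 2.30, with 352 of 574 at 4-fold or more and 100 at 16-fold or more. The calls higher in neurons had a median log2 fold of -1.40, with 59 of 349 at 4-fold or more and 15 at 16-fold or more. Over all IDs tested the median log2 fold was -0.27, from -2.65 at the 5th to 2.05 at the 95th percentile. This median depended on the method, at -0.64 without a filter on low counts, -0.08 with at least 10 counts in every library, -0.04 in limma voom, -0.05 without the replicate block and -0.36 in a fit of all 38 libraries. Tested against a log2 fold of 1 in place of 0, 231 IDs were higher in vessels (2.24%) and 15 lower (0.146%).

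**Figure D2:**
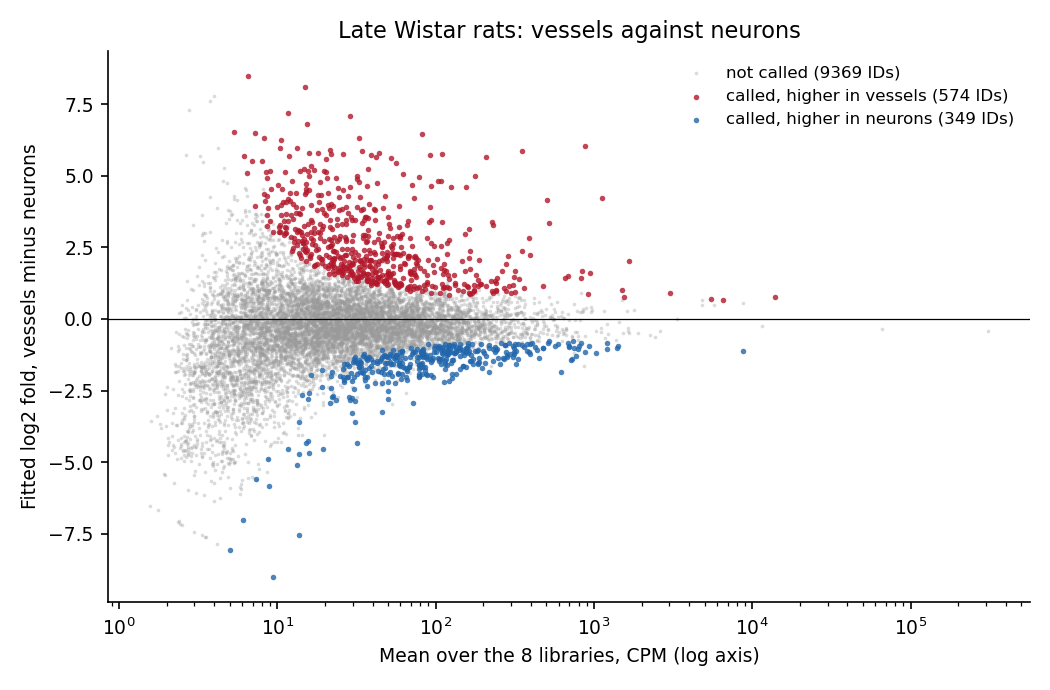
Each point is 1 of the 10292 IDs tested in late Wistar rats. The x axis is the mean over the 8 libraries in CPM (counts scaled to a common library size, log axis), the y axis the fitted log2 fold of vessels minus neurons, and red and blue mark the 574 and 349 calls. Red points reach 8.49 above 0 and blue points 9.02 below it, both among scarce IDs.

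The ID with the smallest p was ENSRNOG00000015550. It measured 2027, 1481, 1078 and 2311 CPM (counts scaled to a common library size with edgeR's TMM method) in the vessels of animals 350, 351, 353 and 354, against 23.1, 35.04, 18.4 and 25.8 CPM in their neurons. The lowest vessel library lay far above the highest neuron library. The mean was 1724 ± 551 CPM in vessels and 25.6 ± 7.03 CPM in neurons (SD, n = 4 each), a 66.3-fold difference (log2 fold 6.05, SE 0.29, edgeR adjusted p = 1.03e-06). ENSRNOG00000057880 measured 620.5, 742.3, 859.5 and 533.8 CPM in vessels, against 10.6, 7.94, 16.4 and 13.3 CPM in neurons. Again no library of the materials overlapped. Animal 353 had the most in both materials, while among animals 350, 351 and 354 the order in vessels was the reverse of that in neurons. The difference was 57.6-fold in favour of vessels (log2 fold 5.85, SE 0.30, edgeR adjusted p = 1.04e-06).

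The leading IDs in the direction of neurons had smaller differences with little spread. ENSRNOG00000047574 measured 42.8, 46.6, 36.1 and 51.9 CPM in vessels, against 226.4, 175.8, 182.7 and 211.1 CPM in neurons. It was 4.49-fold lower in vessels (log2 fold -2.17, SE 0.25, edgeR adjusted p = 0.000250), and its difference within an animal lay between log2 -2.39 and -1.90. ENSRNOG00000009571 measured 43.6, 46.6, 32.2 and 39.0 CPM in vessels, against 176.0, 185.1, 203.0 and 176.6 CPM in neurons. It was 4.61-fold lower in vessels (log2 fold -2.20, SE 0.26, edgeR adjusted p = 0.000280). For both, every vessel library lay under every neuron library, yet each vessel library still held some of the RNA. When the late Wistar difference was instead estimated in a fit of all 38 libraries, which share 1 spread per ID, 40 IDs passed higher and 5 lower, and these neuron-side IDs no longer passed (adjusted p = 0.464 and 0.493). Both vessel-side IDs passed there and in each of the other alternatives run, and all 4 IDs passed without animal 351.

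**Figure D3:**
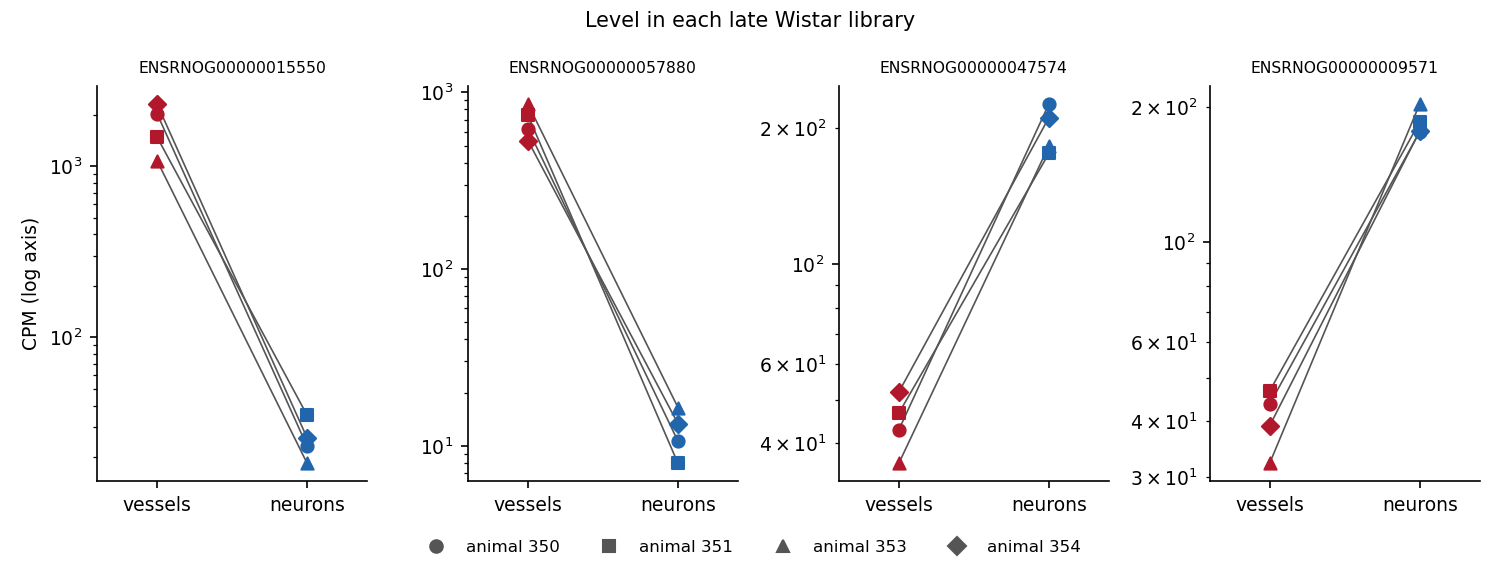
Levels of the 2 IDs higher in vessels and the 2 IDs higher in neurons with the smallest p, in CPM on log axes that differ between panels. Each line joins the vessel (left, red) and neuron (right, blue) library of 1 of the 4 late Wistar animals, and the materials do not overlap in any panel.

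The calls in the direction of vessels and those in the direction of neurons lay at different levels. Calls higher in vessels had a median of 60.0 CPM in vessels and 11.5 CPM in neurons, while calls higher in neurons had a median of 50.4 CPM in vessels and 122.3 CPM in neurons. By mean level over the 8 libraries, 0.777% of the 2701 IDs under 10 CPM were called higher in vessels and 0.222% lower. Between 10 and 30 CPM, 6.29% of 3480 IDs were higher and 1.12% lower. At 30 to 100 CPM, 8.28% of 2827 IDs were higher and 5.27% lower, and from 100 to 300 CPM 7.13% of 1010 IDs were higher and 10.7% lower. At 300 CPM or more, 10.2% of 274 IDs were higher and 17.2% lower. In this fit the balance of the calls therefore turned with level: abundant IDs were called lower in vessels more often, and IDs under 100 CPM higher more often. The median log2 fold of all IDs did not follow it, at -0.82, -0.15, -0.15, -0.24 and -0.26 from the lowest to the highest band. The bands were counted in the main edgeR fit alone, and the balance of directions depends on filter and tool. The median SE of the log2 fold was 1.47 under 10 CPM and 0.228 at 300 CPM or more, so the fold of a scarce ID was measured far less precisely.

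The counts of the calls were unevenly shared among them, as those of all IDs were: 10 of the 10292 IDs tested held 41.7% of their CPM in vessels, and 1233 reached 100 CPM there. In vessels, 10 of the 574 IDs held 44.8% of the summed CPM of that group, the highest of them 17680 CPM, and 162 reached 100 CPM. In neurons, the leading 10 of the 349 IDs held 28.4%, the highest of them 12110 CPM, and 204 reached 100 CPM. Calls higher in vessels were also counted in neurons: 528 of 574 (92.0%) had counts in all 4 neuron libraries, and 1 had none in any. Likewise 332 of the 349 calls higher in neurons (95.1%) had counts in all 4 vessel libraries, and 2 had none. Of all IDs tested, 1.01% lacked a count in at least 1 neuron library and 18.2% in at least 1 vessel library, and the filter on low counts removes most IDs found in 1 material alone, so nothing about presence is read from these shares.

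Vessel libraries varied much more than neuron libraries. With 1 library per animal and material, spread between animals and between captures cannot be told apart. Over the 10292 IDs the median SD of the log2 CPM between the 4 libraries was 0.814 in vessels and 0.362 in neurons. The SD was larger in vessels for 87.3% of IDs. Among the 1284 IDs with a mean of at least 100 CPM it was 0.422 and 0.242. At least 1 of 4 libraries lacked any count for 18.2% of IDs in vessels and 1.01% in neurons. In the paired fit 1 spread per ID serves both materials, so an SE above does not separate them. The paired differences of 2 animals correlated across the 10292 IDs with Pearson's r between 0.336 (351 and 353) and 0.487 (350 and 354), as a description, since the IDs of 1 library are not independent. All 4 animals had the same sign for 3450 of the 10292 IDs (33.5%), for 572 of the 574 calls higher in vessels and for 345 of the 349 higher in neurons. The libraries of the materials did not overlap for 1111 IDs higher in vessels (10.8%) and 929 lower (9.03%), among them 549 and 290 of the calls. Since the calls rest on the same libraries, their even signs add nothing to the test.

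An animal that took no part in choosing the IDs gives a separate measure. With animal 350 left out, 332 IDs were called higher in vessels (3.20%) and 106 lower (1.02%) in the other 3. Of these, 329 (99.1%) and 105 (99.1%) had the same sign in animal 350, where 42.3% of all IDs tested were higher and 57.6% lower. With 351 left out, 336 were called higher (3.26%) and 171 lower (1.66%), and 97.6% and 88.9% kept their sign in 351, against 44.4% and 55.5% of all IDs. With 353 left out the calls were 369 (3.48%) and 140 (1.32%), of which 94.6% and 98.6% kept their sign, against 41.9% and 57.9%. With 354 left out they were 298 (2.95%) and 134 (1.33%), of which 99.7% and 87.3% kept their sign, against 45.2% and 54.7%. In each animal the sign of the calls from the other 3 was thus kept far above the share of all IDs, in both directions.

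The sizes held less evenly than the signs. The median log2 fold of the calls higher in vessels was 2.71, 2.44, 2.25 and 2.53 in the left-out animals 350, 351, 353 and 354, against 2.97, 2.88, 2.88 and 2.90 in the 3 animals that chose them. For the calls lower in vessels it was -1.81, -0.92, -1.22 and -1.01, against -1.69, -1.64, -1.56 and -1.79. These are unlike measures: a difference of log2 CPM with a prior count of 2 in the left-out animal, a fitted edgeR fold in the 3. The IDs were also chosen in those 3, which can enlarge their folds there. The gap between the medians is therefore not read as a loss of size. A difference of at least 2-fold was met in the left-out animal by 83.2% to 94.0% of the calls higher in vessels, where 16.4% to 19.1% of all IDs met it, and by 46.2% to 86.8% of the calls lower in vessels, where 21.4% to 31.6% did. The lowest of these shares, 46.2%, was in animal 351, whose neuron library stood apart, as described above. Whether that library lowered it was not tested. The number of calls itself rested on having all 4 animals, at 298 to 369 higher and 106 to 171 lower with 3, where 295 to 345 and 101 to 143 were among the 574 and 349. The TMM scaling used all 8 libraries, so the left-out values are not free of the other animals in that step.

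**Figure D4:**
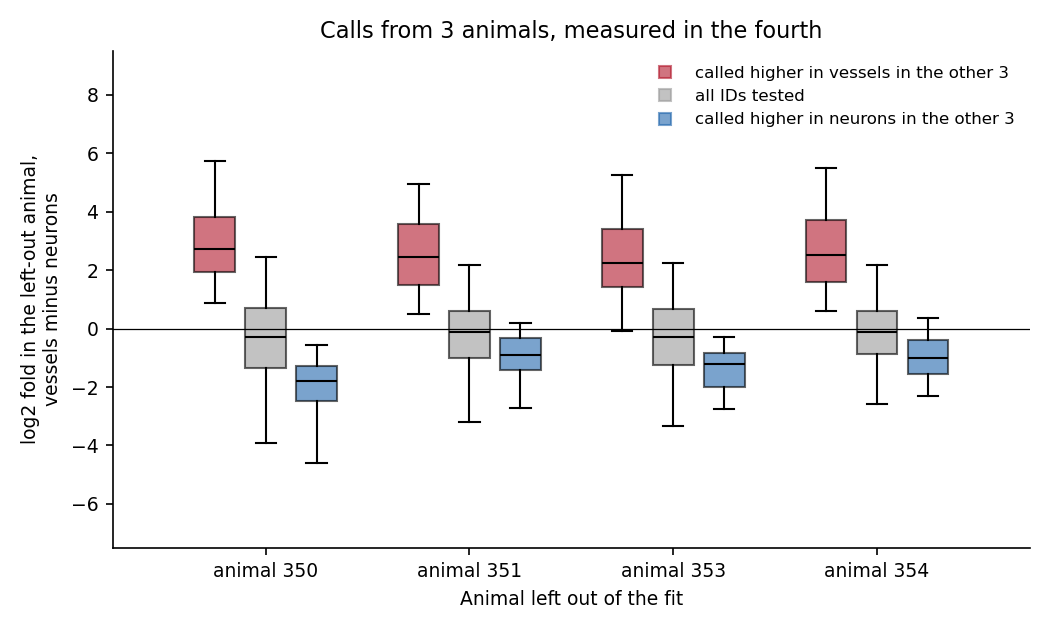
For each late Wistar animal left out of the fit, boxes show its own log2 fold of vessels minus neurons for IDs called higher in vessels in the other 3 animals (red), for all IDs tested (grey) and for IDs called higher in neurons (blue). Lines in the boxes are medians, boxes the quartiles and whiskers the 5th to 95th. The red medians lie between 2.25 and 2.71 and the blue ones between -1.81 and -0.92, on either side of the grey medians.

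Late SHRSP rats of the same age offer a choice of IDs made without any of these 8 libraries. In their 5 pairs, 525 of 10108 IDs were higher in vessels (5.19%) and 298 lower (2.95%) in the same kind of fit, of which 506 and 215 had a log2 fold of at least 1 in size. The 506 vessel IDs took 12.6%, 9.33%, 8.78% and 10.8% of the counts in the vessels of late Wistar animals 350, 351, 353 and 354, against 3.39%, 5.27%, 2.86% and 3.79% in their neurons. The 215 neuron IDs took 2.46%, 2.41%, 3.53% and 2.38% of the counts in vessels, against 5.06%, 5.20%, 5.17% and 4.75% in neurons. Each vessel library thus lay above each neuron library for the vessel IDs and below it for the neuron IDs, with no overlap. The Wilson intervals of these shares reach at most 0.0366 percentage points to either side. Animal 351 had the highest share of vessel IDs among the neuron libraries, and animal 353 the highest share of neuron IDs among the vessel libraries.

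Seen from the other side, the late Wistar calls were mostly met again in late SHRSP rats. Of the 574 calls higher in vessels 553 could be tested there, and 546 (98.7%) had the same sign, where 37.1% of all IDs were higher in vessels. All 349 calls lower in vessels could be tested, and 348 (99.7%) had the same sign, where 62.9% of all IDs were lower. Calls shared in direction numbered 366 higher, which is 63.8% of the late Wistar and 69.7% of the late SHRSP calls, and 157 lower, 45.0% and 52.7%. No ID was called in opposite directions. Over the vessel calls tested in both, the median log2 fold was 2.25 in late Wistar and 2.17 in late SHRSP rats. On the neuron side it was -1.40 and -1.15. The IDs were chosen in late Wistar rats, which can enlarge their folds there, so these medians do not compare the strains. Of the 100 vessel calls with a log2 fold of at least 4, 84 could be tested in late SHRSP rats. There 77 of them were called too (91.7%), against 191 of 247 between 2 and 4 (77.3%) and 98 of 222 under 2 (44.1%). An ID scarce in neurons can pass the filter on low counts through vessel libraries alone, so these shares do not compare the size classes. On the neuron side the order of the shares called again was the reverse. They were 2 of 15 at 4 or more, 8 of 44 between 2 and 4 and 147 of 290 under 2. The sign, however, was kept by 15 of 15, 44 of 44 and 289 of 290. The median log2 fold of these classes in late SHRSP rats was -3.05, -1.61 and -1.09.

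The younger animals met the calls far less completely. In early Wistar rats 50 of 9070 IDs were higher in vessels (0.551%) and 37 lower (0.408%), and in early SHRSP rats 50 of 9015 were higher (0.555%) and 480 lower (5.32%). Of the late Wistar calls higher in vessels, 481 could be tested in early Wistar rats and 339 (70.5%) had the same sign, where 19.7% of all IDs were higher. In early SHRSP rats this was 329 of 493 (66.7%), where 12.4% of all IDs were. Of the 100 vessel calls with a log2 fold of at least 4, only 45 could be tested in early Wistar and 44 in early SHRSP rats. The same sign was seen in 41 and 41 of those, and under a log2 fold of 2 in 142 of 222 and 120 of 221. Since an ID scarce in neurons can pass the filter through vessel libraries alone, the size classes cannot be compared by these shares. Calls lower in vessels had the same sign in 95.4% and 98.0% of those tested, where 80.3% and 87.6% of all IDs were lower, so little can be read from them. The median log2 fold of all IDs was -1.19 in early Wistar and -3.54 in early SHRSP rats, against -0.27 in late Wistar rats. The vessel libraries also differed in kind, with 10478 to 11974 IDs detected in late Wistar, 5833 to 11754 in early Wistar and 4104 to 10207 in early SHRSP rats. The part of these library differences in the lower agreement was not tested.

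**Figure D5:**
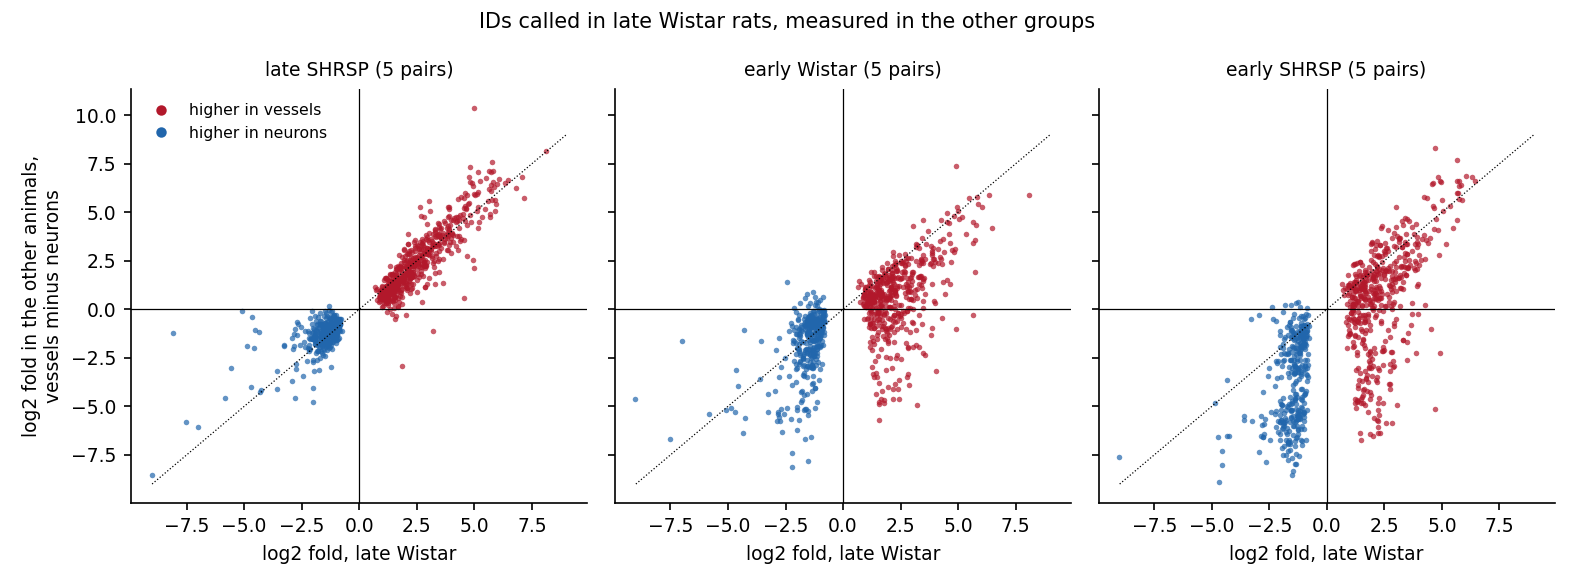
Each point is an ID called in late Wistar rats, with its log2 fold there on the x axis and its log2 fold of vessels minus neurons in late SHRSP, early Wistar or early SHRSP rats on the y axis. Red points were called higher in vessels in late Wistar rats and blue ones higher in neurons, and the dotted line marks equal folds. Points follow that line in late SHRSP rats, while red points scatter widely around 0 in both early groups, where 70.5% and 66.7% of those tested were above it.

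Whether the vessel-neuron difference of late Wistar rats differed from that of late SHRSP rats was tested directly, as the difference between the paired log2 folds over 18 libraries. No ID passed in edgeR (0 of 11473, 0%), and 318 had an unadjusted p under 0.05. In DESeq2 the difference was higher in late Wistar rats for 5 IDs and lower for 2, and limma voom gave 0. Among the IDs called in late Wistar rats, 58 of 922 (6.29%) had an unadjusted p under 0.05, against 2.77% of all IDs tested. These IDs were chosen by their late Wistar fold, which is part of the difference tested. The choice alone can raise their share, so no strain difference is read from it. The IDs named above differed by log2 -0.63 (SE 0.35) for ENSRNOG00000015550, -0.41 (SE 0.36) for ENSRNOG00000057880, -0.90 (SE 0.38) for ENSRNOG00000047574 and -0.11 (SE 0.44) for ENSRNOG00000009571. For ENSRNOG00000047574 the means differed more in vessels than in neurons, at 46.5 ± 6.37 CPM in late Wistar rats on the scale of the 18 libraries (SD, n = 4) and 78.3 ± 30.3 CPM in late SHRSP rats (SD, n = 5), while neurons stood at 211.8 ± 23.2 CPM in late Wistar and 182.0 ± 25.0 CPM in late SHRSP rats. With a median SE of 0.609 over the calls higher in vessels and 0.464 over those lower, the test leaves room for sizeable differences.

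The smallest p of that test belonged to ENSRNOG00000004608, an ID that was not called in late Wistar rats. It averaged 39.5 ± 17.0 CPM in vessels and 25.5 ± 5.81 CPM in neurons of late Wistar rats (SD, n = 4 each), against 5.92 ± 8.26 CPM in vessels and 28.4 ± 8.06 CPM in neurons of late SHRSP rats (SD, n = 5 each). The neurons of both strains overlapped, while the lowest late Wistar vessel library, at 20.8 CPM, lay above the highest late SHRSP one, at 19.4 CPM. The difference of the log2 folds was 4.11 (SE 1.05) and did not pass (edgeR adjusted p = 1). DESeq2 called it (Wald test, adjusted p = 0.0451), and its adjusted p lay between 0.0451 and 1 over 15 alternatives.

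Against early Wistar rats, the same kind of test over 18 libraries called 2 of 11169 IDs (0.0179%), both with a lower vessel-neuron difference in late rats. ENSRNOG00000033299 averaged 1649 ± 477 CPM in vessels and 2439 ± 1238 CPM in neurons of late Wistar rats (SD, n = 4 each), against 2437 ± 463 CPM in vessels and 1345 ± 570 CPM in neurons of early Wistar rats (SD, n = 5 each). Its log2 folds differed by -1.44 (SE 0.25, edgeR adjusted p = 0.00337). ENSRNOG00000031033 averaged 6016 ± 271 CPM in vessels and 4317 ± 598 CPM in neurons of late Wistar rats, against 11392 ± 5370 CPM in vessels and 3640 ± 960 CPM in neurons of early Wistar rats. Its log2 folds differed by -1.10 (SE 0.20, edgeR adjusted p = 0.0163). For both, the mean was lower in vessels and higher in neurons of late rats, and late Wistar rats alone showed no call for either (adjusted p = 0.231 and 0.129).

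Both calls depended on which early animals were included, on the tool, on the pairing and on the filter. Leaving out any of the late animals 350, 351, 353 and 354 kept both, but leaving out most of the early ones did not. ENSRNOG00000033299 did not pass without animal 343 (adjusted p = 0.140), 346 (0.0720), 349 (0.260) or 368 (0.360), nor ENSRNOG00000031033 without 340 (0.1102), 346 (0.930), 349 (0.260) or 368 (0.566). Neither passed in DESeq2 (0.0745 and 0.155) or limma voom (0.416 and 0.282), nor without the replicate block (0.550 and 0.485) or with at least 10 counts in every library (0.580 and 0.828). The range over 16 alternatives was 4.57e-09 to 0.580 for ENSRNOG00000033299, and 6.43e-10 to 0.930 for ENSRNOG00000031033. The median difference of all IDs in this test was 1.16, but 0.08 with at least 10 counts in every library, 0.23 in limma voom and 0.26 without the replicate block. DESeq2 called 372 IDs higher and 2 others lower. Of the early Wistar animals, only 349 resembled the late ones in IDs detected in vessels (11754) and in the share of the most abundant ID in neurons (24.6%), so no comparison of ages within similar libraries could be made.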

How the data were processed

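RNA was extracted with the PicoPure kit and sequenced from 3' ends after QuantSeq forward library preparation, per the labels' protocols. The authors deposited whole-number counts for 32883 Ensembl gene IDs in 38 columns, each matched to its sample by title (0 unmatched). Tools in the submitters' processing notes are STAR 2.5.3a, HTSeq 0.6.1, DESeq2 1.18.1 and FastQC 0.11.5. Genome build, annotation and strand setting were not given in the sources used here. How reads of overlapping or near-identical genes were assigned is therefore not known. 0 IDs matched the reference table (assembly GRCr8), and 24 prepared gene lists were not applied.

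Counts were tested genome-wide with edgeR 4.0.16 in R 4.3.3 (filterByExpr, TMM, robust quasi-likelihood F test, two-sided, Benjamini-Hochberg over all IDs tested), in the 8 late Wistar libraries with animal as a block. SE is the log2 fold divided by the square root of F. Per-animal log2 CPM used a prior count of 2. Tests of a difference between groups used the 18 libraries of both groups. limma 3.58.1 and DESeq2 1.42.0 served as alternatives. The procedures were run on simulated data with the same spread in every library. Vessel and neuron libraries differed in spread, so those runs do not show how the tests behave here. Named IDs are the 2 per direction with the smallest p among calls of at least 2-fold with 1 sign in 4 animals, or the smallest p of a test between groups; ENSRNOG00000043866 was chosen as the most abundant. The comparison and its lists were chosen with earlier results of these data known.

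The pairing rests on the titles' numbers, and the values give it little support. Deviations from the group means correlated between -0.0749 and 0.332 within the 4 pairs and between -0.362 and 0.229 in the 12 pairings of unlike numbers, over the 3598 IDs whose mean log2 CPM reached 5. Within groups, 12 pairs of libraries had a chi-square per degree of freedom of at least 6.33, so none looked like a library deposited again. No source used here says whether animals were handled separately after cutting, so p-values measure the spread between these libraries, which may partly be technical. IDs under 10 CPM were rarely called, and whether depth limited them was not tested. Intervals cover counting error only.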

Additional observations from a re-analysis of the deposited data

Results flagged for a closer look

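In 20 sets of 4 libraries a library far from the rest was looked for (6 library measures and 4 named IDs, in vessels and in neurons). Such a library was found in 3 sets, where chance gives about 1 in 20 for independent sets. The sets are not independent, since the share of the most abundant ID and the scaling factor can move together. No excess over chance is therefore read from this number. The neuron library of animal 351 had 24.3% of its counts in the most abundant ID, far below the other 3 neuron libraries. The same library had the highest scaling factor of the neurons, 1.124. The vessel library of animal 353 had the largest share of neuron IDs chosen in late SHRSP rats, 3.53%, and it was also the shallowest library. Without animal 351, 336 IDs were called higher in vessels and 171 lower, and 369 and 140 without animal 353, against 574 and 349 with all animals.

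A test between late and early Wistar rats found the vessel-neuron difference lower in late rats for ENSRNOG00000033299 (log2 difference -1.443) and for ENSRNOG00000031033 (log2 difference -1.097). The early vessel libraries also held fewer IDs than the late ones in 4 of 5 animals. The part of library content in these differences was not tested.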

How the results depend on the processing

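The number of calls higher in vessels was within 1.5 times of 574 with DESeq2-type scaling, without a filter on low counts, with at least 10 counts in every library, in limma voom, without the most abundant ID and without the replicate block. With at least 10 counts in every library it was 561, but only 380 of the 574 were among them. Without the replicate block 784 were higher and 364 lower, among them 568 of the 574 and 270 of the 349. Chosen after seeing the data, thinning to equal depth gave 587. They numbered 872 in DESeq2, 40 in the fit of all 38 libraries, 231 against a log2 fold of 1 and 298 to 369 with an animal left out. Calls lower in vessels moved more, from 349 to 821 without a filter, 540 with at least 10 counts in every library, 1109 in DESeq2, 673 in limma voom, 5 with all 38 libraries, 15 against a log2 fold of 1 and 106 to 171 with an animal left out. The share of calls higher in vessels was 62.2%, but 43.5% without a filter, 44.0% in DESeq2, 51.0% with at least 10 counts in every library and 53.8% in limma voom, so which direction had more calls depends on filter and tool. Of the 574 and 349 calls, DESeq2 held all and limma voom 562 and 347. The difference from late SHRSP rats gave 5 and 2 calls in DESeq2 and 0 in the other alternatives. The difference from early Wistar rats gave, lower, 4 calls without a filter, 0 with at least 10 counts in every library or without the replicate block, and 0 to 8 with an animal left out (animals of the early group chosen after seeing the data), and, higher, 372 in DESeq2 and 5 in limma voom. The median difference of all IDs in that test moved by -0.19 with DESeq2-type scaling, -1.09 with at least 10 counts in every library, -0.93 in limma voom and -0.90 without the replicate block. The cause of these changes was not tested. The libraries held 2291689 to 4910359 counts. Of the IDs under 10 CPM, 0.777% were called higher in vessels and 0.222% lower, and the part of depth in this was not tested.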

Other observations

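Some IDs were counted in 1 material only. Over the whole table of 32883 IDs, 8 had counts in all 4 vessel libraries and none in the 4 neuron libraries, with 92 to 214 counts summed over the vessels. In the other direction 449 IDs had counts in all 4 neuron libraries and none in the vessels, with 4 to 242 counts summed and a median of 18. Of the 8 and the 449, 4 and 13 passed the filter on low counts, and 1 and 2 were called. In all, 13848 IDs had a count in some vessel library and 16291 in some neuron library, 13313 of them in both.

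ENSRNOG00000015550 had a log2 fold of vessels minus neurons of 6.05 (SE 0.29) in late Wistar, 6.73 (SE 0.29) in late SHRSP, 5.27 (SE 0.35) in early Wistar and 6.88 (SE 0.23) in early SHRSP rats. ENSRNOG00000057880 stood at 5.85 (SE 0.30), 6.31 (SE 0.29), 5.40 (SE 0.50) and 6.42 (SE 0.60) in the same order of groups. Of the neuron-side IDs, ENSRNOG00000047574 stood at -2.17 (SE 0.25), -1.23 (SE 0.28), -1.60 (SE 0.61) and -2.76 (SE 2.02), and ENSRNOG00000009571 at -2.20 (SE 0.26), -2.05 (SE 0.36), -0.85 (SE 0.79) and -2.64 (SE 2.13). These folds come from separate fits and differences between them were tested only against late SHRSP and early Wistar rats.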
